A study of Caenorhabditis elegans with 2 samples.

Results

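Chromatin regions at the starts of X-linked genes were examined in a ChIP-seq experiment on eGFP-tagged NHR-237, a nuclear hormone receptor of Caenorhabditis elegans. The members were defined by position within a list of called regions, with earlier results of these data known. They are the regions on X, in the ce11 list called on both libraries together, whose summit lay within 1000 bp of the 5′ end of a protein-coding gene in the Ensembl WBcel235 models. There were 400 such regions among 1179 on X and 6542 in the whole list. The list deliberately includes background, as input for the irreproducible discovery rate (IDR), a comparison of ranks between replicates. Both libraries came from whole L2 larvae, pooled male and female, of strain OP228, with genotype unc-119(ed3) III; wgIs228. The wgIs228 insertion carries the eGFP-tagged nhr-237, and unc-119(ed3) is shared by both libraries. They are biological replicates 1 and 2 of 1 group, so there was no contrast between conditions. Signal from whole larvae is an average over all tissues, and the promoter that drives the transgene, the age of the larvae beyond their stage and the nature of the control are not stated in the sources used here.

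Nuclear hormone receptors are transcription factors that bind DNA through a pair of zinc fingers, and the family is greatly expanded in nematodes. The X chromosome of C. elegans is present as a pair in hermaphrodites and singly in males. In hermaphrodites a dosage compensation complex, brought to X by SDC-2, loads at recruitment sites that contain the MEX motif, and lowers expression from both X chromosomes. X is also poor in genes needed in the germline. Starts of gene models in this organism are often sites of trans-splicing, so transcription can begin further upstream.

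The following windows of WBcel235 sequence are centred on the summits of 7 members and are written on the plus strand. The first pair are the strongest members. They are shown because both hold GCGCAGGG, the core of the MEX motif, printed in capitals as it reads on the plus strand.
nspc-17, chrX:14525817-14526017: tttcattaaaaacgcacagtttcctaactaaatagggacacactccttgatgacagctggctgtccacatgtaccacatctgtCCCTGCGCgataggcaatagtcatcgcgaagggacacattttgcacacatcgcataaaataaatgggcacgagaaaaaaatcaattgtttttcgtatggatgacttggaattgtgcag
ins-39, chrX:1344968-1345168: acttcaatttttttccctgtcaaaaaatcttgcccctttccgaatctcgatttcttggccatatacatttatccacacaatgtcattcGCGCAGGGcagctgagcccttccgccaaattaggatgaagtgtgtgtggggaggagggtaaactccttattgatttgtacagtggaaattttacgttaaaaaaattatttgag
The next pair, of the third and the eighth member by signal, are shown for their high G and C content (53.2% and 60.2%) and have no capitals.
puf-9, chrX:5841168-5841368: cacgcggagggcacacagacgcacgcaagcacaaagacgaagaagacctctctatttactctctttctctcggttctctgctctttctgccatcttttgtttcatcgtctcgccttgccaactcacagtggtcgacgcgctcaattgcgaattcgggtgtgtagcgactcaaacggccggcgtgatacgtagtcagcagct
hsp-3, chrX:6092099-6092299: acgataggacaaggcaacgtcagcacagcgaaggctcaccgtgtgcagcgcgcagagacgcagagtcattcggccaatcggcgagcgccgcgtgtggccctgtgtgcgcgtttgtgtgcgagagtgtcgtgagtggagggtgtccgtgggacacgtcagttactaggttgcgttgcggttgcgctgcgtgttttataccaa
The last 3 hold the GA repeat GAGAGAG on either strand, printed in capitals.
zfp-3, chrX:1446833-1447033: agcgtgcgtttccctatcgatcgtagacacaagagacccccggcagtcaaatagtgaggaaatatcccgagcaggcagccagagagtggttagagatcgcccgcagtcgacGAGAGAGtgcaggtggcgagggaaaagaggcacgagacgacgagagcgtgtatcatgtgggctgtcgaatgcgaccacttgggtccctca
bet-2, chrX:10568812-10569012: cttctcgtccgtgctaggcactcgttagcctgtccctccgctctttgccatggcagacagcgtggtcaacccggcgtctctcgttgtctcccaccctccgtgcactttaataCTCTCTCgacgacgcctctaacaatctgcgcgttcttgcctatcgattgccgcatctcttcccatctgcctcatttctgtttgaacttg
sdc-2, chrX:11522164-11522364: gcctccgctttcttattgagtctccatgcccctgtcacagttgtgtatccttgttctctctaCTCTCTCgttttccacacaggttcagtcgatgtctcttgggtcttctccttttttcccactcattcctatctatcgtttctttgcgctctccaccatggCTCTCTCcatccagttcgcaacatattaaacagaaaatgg

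The signal of a region (column 7 of the list) is the authors' own value and has no unit beyond its list. Pooled signals of members ran from 18.8 to 316. Their median was 21.7, and the middle of the distribution lay between the quartiles 20.1 and 26.4. Medians were 21.9 for the 779 X regions away from starts, 22.6 for the 2363 autosomal regions at starts and 21.9 for the whole list. Most members were therefore weak regions near the lower end of the list, and a small number stood far above. The IDR list held the 350 pooled regions with the highest signal, so an IDR peak is a region with a pooled signal of about 41.9 or more. Members included 27 IDR peaks (6.75%, exact 95% binomial interval 4.50 to 9.67), against 5.35% of all pooled regions. The share was 6.03% of X regions away from starts, 8.72% of autosomal regions at starts and 2.33% of autosomal regions away from them.

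Members made up 33.9% of the X regions (interval 31.2 to 36.7), while 28.9% of the X sequence lay within 1000 bp of a protein-coding start. On autosomes 44.1% of regions were at starts, against 36.0% of the sequence. X carried fewer genes per length, with 154 protein-coding genes per Mb compared with 209 on autosomes. The gap widened among the strong regions. Of the IDR peaks on X, 36.5% were at starts, against 74.6% on autosomes, and for the other regions the shares were 33.8% and 42.4%. These shares are descriptions over regions of 1 genome, with no test.

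Summits lay upstream of the closest start in 227 members (56.8%, interval 51.7 to 61.7) and downstream in 173. The median position was −116 bp, with quartiles of −471 and 360, so the members as a whole were spread over the entire window. Autosomal regions at starts had the same median of −116 bp with narrower quartiles of −354 and 282, and 62.4% were upstream. Within the 500 bp before the start lay 131 members (32.8%), compared with 45.3% of autosomal regions at starts.

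Position changed with signal. Among the 27 IDR peaks, 22 summits were upstream (81.5%, interval 61.9 to 93.7), with a median of −274 bp and quartiles of −450 and −130. Among the other 373 members, 205 were upstream (55.0%, interval 49.8 to 60.1), with a median of −98 bp and quartiles of −471 and 391. In groups of 100 members taken from the highest to the lowest signal, the upstream share was 73.0%, 50%, 45% and 59.0%. The 206 autosomal IDR peaks at starts sat closer, with 88.8% upstream, a median of −174 bp and quartiles of −285 and −82. Position is measured to the closest start, and 46.1% of these had starts on both strands within reach, against 3.70% of the IDR peaks on X. The part of such paired starts in the difference was not tested. The most occupied 200 bp bin was −400 to −200 bp for the IDR peaks on X (10 of 27) and −200 to 0 bp for those on autosomes (96 of 206).

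**Figure D1:**
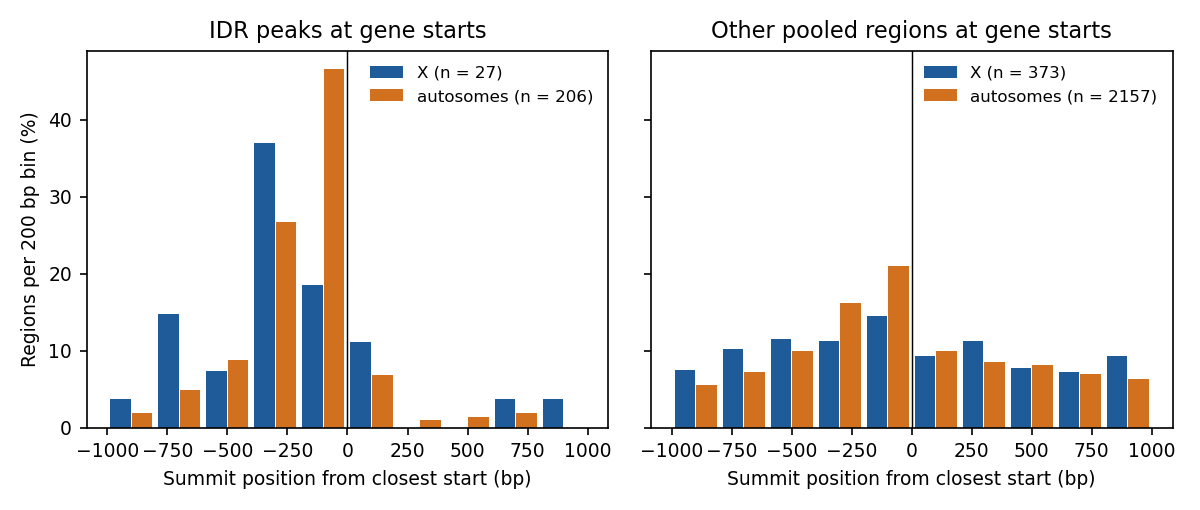
Share of regions at gene starts in each 200 bp bin of summit position, negative upstream, for IDR peaks (left) and other pooled regions (right), on X (blue) and autosomes (orange). IDR peaks on X gather between −400 and −200 bp and autosomal ones between −200 and 0 bp. The other regions on X are spread across the window, with 7.24% to 14.5% in each bin, while those on autosomes are most frequent between −200 and 0 bp, at 21.0%.

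By annotation, 217 of the 400 summits were intergenic (54.2%), 97 in introns, 54 in coding exons, 21 in 5′ UTRs and 11 in 3′ UTRs. Of the IDR members, 24 were intergenic and the remaining 3, at hst-2, pdi-2 and C28G1.2, were in 5′ UTRs. The 173 downstream summits were mostly in introns (91) or coding exons (47). A transcript 5′ end lay within 200 bp of 44 of them, and the gene's own start within 200 bp of 38.

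A start on each strand was within reach of 21 members (5.25%), against 471 of the autosomal regions at starts (19.9%). In the gene models as a whole, an opposite-strand start lay within 1000 bp for 6.52% of all X genes and 20.6% of autosomal genes. In all, 397 X genes had a start near a member, which is 14.5% of the 2731 protein-coding genes on X, compared with 16.0% of autosomal genes near a pooled region. Of the 397, 367 had 1 region, 26 had 2 and 4 had more. Those 4, named after the counts were seen, were rpl-11.2, ftt-2, ain-1 and acly-1, each with 3. Sequence names alone identify 193 of the 397, and 1435 of the 2731.

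The strongest member lay 736 bp upstream of nspc-17, a gene of a nematode-specific peptide family. Its pooled signal was 316, the seventh of the whole list, with 233 in replicate 1 and 88.9 in replicate 2. It ranked 3 and 12 in those lists. The sequence within 100 bp of its summit was unique in the genome at the level of 31-mers, although nspc genes form a family of similar copies. The next member lay 647 bp upstream of ins-39, an insulin-like peptide gene, with a pooled signal of 176 and replicate signals of 129 and 46.7, at ranks 18 and 33. These 2 members stood clear of the third, at 110, and their intervals were narrower than the 376 bp shared by the other 398 members.

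The third was at puf-9, for a Pumilio family RNA-binding protein. Its summit was 324 bp upstream, its pooled signal was 110, its replicate signals were 77.7 and 45.4, and it ranked 35 in both lists. Below it came serp-1.1 (pooled signal 87.1), rpl-11.2 for a protein of the large ribosomal subunit (84.0), ftt-2 for a 14-3-3 protein (83.2), zfp-3 (82.0) and hsp-3 for the Hsp70 of the endoplasmic reticulum (80.4). All 5 ranked between 57 and 98 in each replicate, with signals of 51.0 to 59.8 in replicate 1 and 27.8 to 33.9 in replicate 2. The summit of hsp-3 was 75 bp upstream of the start, and those of the other 4 were 274 to 516 bp upstream. The ninth was at R11.4 (pooled signal 76.2), 723 bp downstream of the start of that short gene and past its end, and 43 bp from a tRNA gene. Its replicate ranks were 121 and 58. The tenth was at bet-2, for a bromodomain protein, with a pooled signal of 71.1 and ranks of 159 and 88.

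The next IDR members included epn-1 for the endocytic adaptor epsin (pooled signal 64.3), dpy-23 for the mu subunit of the AP2 clathrin adaptor (63.5), spc-1 for alpha spectrin (47.2), vha-15 for a subunit of the vacuolar proton pump (49.0) and sec-3 of the exocyst (45.7). The summit at C28G1.2 (44.3) also lay 311 bp upstream of the start of sec-15, another exocyst gene. The start of sec-15 was named after its value was seen. The other IDR members were at pkhm-2 (70.3), hst-2 for a heparan sulfate sulfotransferase (62.3), F55G7.1 (53.5), ZC506.1 (52.4), sym-4 (51.5), ain-1 for a GW182-type protein of the microRNA pathway (50.9), F28C10.3 (50.4), pdi-2 for protein disulfide isomerase (45.4) and F02C12.3 (44.7). A second IDR member lay at ftt-2 (49.4), 722 bp upstream, and another at rpl-11.2 (42.2), 962 bp downstream of the start and past the end of the gene. Just under the IDR threshold followed 3 more, at nhr-48, C14A11.9 and sor-3, with pooled signals of 41.1, 40.9 and 40.2.

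**Figure D2:**
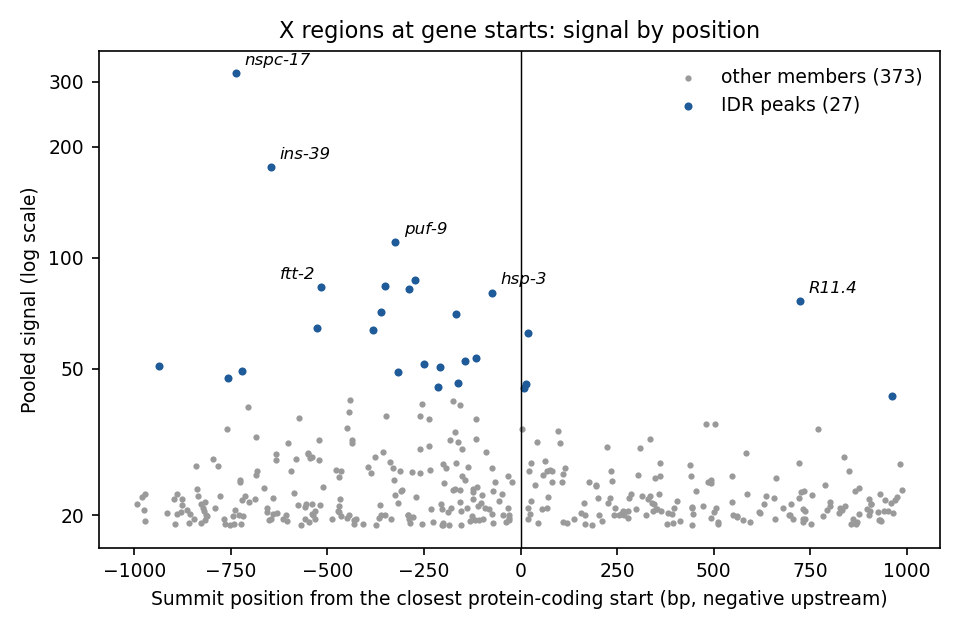
Pooled signal (log scale) of the 400 members by summit position from the closest protein-coding start, with IDR peaks in blue and the other members in grey. Signals above 42.2 lie mainly upstream, with nspc-17 at 316 and ins-39 at 176 highest, and R11.4 the strongest on the downstream side.

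At the edge of the rule, the farthest members were at hlh-8 (−993 bp, signal 21.4), snx-17 (986 bp, 23.5) and M03B6.4 (983 bp, 27.5). The nearest regions left outside were at tbc-12 (1001 bp, 24.5), fbxb-58 (−1006 bp, 258) and aex-3 (1008 bp, 20.5). The fbxb-58 region, rank 13 of the pooled list, would have been the second strongest member. Median signal did not fall off at the edge. It was 22.5 up to 500 bp, 21.3 between 500 and 1000 bp and 22.0 between 1000 and 2000 bp.

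Most strong members were high in both replicates, and few of the weak ones were. Each replicate list held 30000 regions. A region with a summit within 150 bp was listed for 351 members in replicate 1 (87.8%) and for 243 in replicate 2 (60.8%), for 198 in both and for all but 4 in at least 1 of them. The same shares for the whole pooled list were 86.7% and 63.7%. A member was called high in a replicate when such a region was among its 6542 highest, the size of the pooled list. That held for 221 members in replicate 1 (55.2%), 140 in replicate 2 (35.0%) and 63 in both (15.8%). For all pooled regions the shares were 52.6%, 34.5% and 13.9%. For X regions away from starts it held in both for 15.1%, and for autosomal regions at starts for 18.8%.

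Members high in both replicates were concentrated at the top. They numbered 26 of the 27 IDR members and 59 of the 100 strongest members, but 2, 1 and 1 of the next 3 groups of 100. The pooled list was called on the same libraries, so the pooled and replicate ranks are not independent. The IDR member that fell short was the second one at ftt-2, listed at rank 89 in replicate 1 with no summit of replicate 2 within 150 bp. The nearest was 269 bp away. Among the 350 highest of each list, 29 members were found in replicate 1, 28 in replicate 2 and 15 in both (3.75%). The share in both was 4.66% for autosomal regions at starts and 3.34% for X regions away from starts.

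Ranks of single members could diverge widely. For dpy-23 the signals were 49.0 in replicate 1 and 13.8 in replicate 2, at ranks 100 and 1274, and for sec-3 the ranks were 436 and 5344. For sym-4, spc-1 and nhr-48 the order was the reverse, with ranks of 974, 1577 and 3832 in replicate 1 but 90, 116 and 137 in replicate 2. Across the 198 members in both replicate lists, Spearman's rho of the replicate signals was 0.251. The members were chosen from a list called on both libraries together, so this value is not independent of that choice. For autosomal regions at starts it was 0.301 over 1309 regions. Within the members it was 0.661 for the 26 IDR members in both lists and −0.0525 for the 172 others. IDR compares ranks between these same replicates, and the members outside it are limited to pooled signals of 18.8 to 41.1. The contrast between these values is therefore not independent of how the members were split. In signal, 162 of the 198 were higher in replicate 1, with a median ratio of 1.67, on scales that belong to each list.

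**Figure D3:**
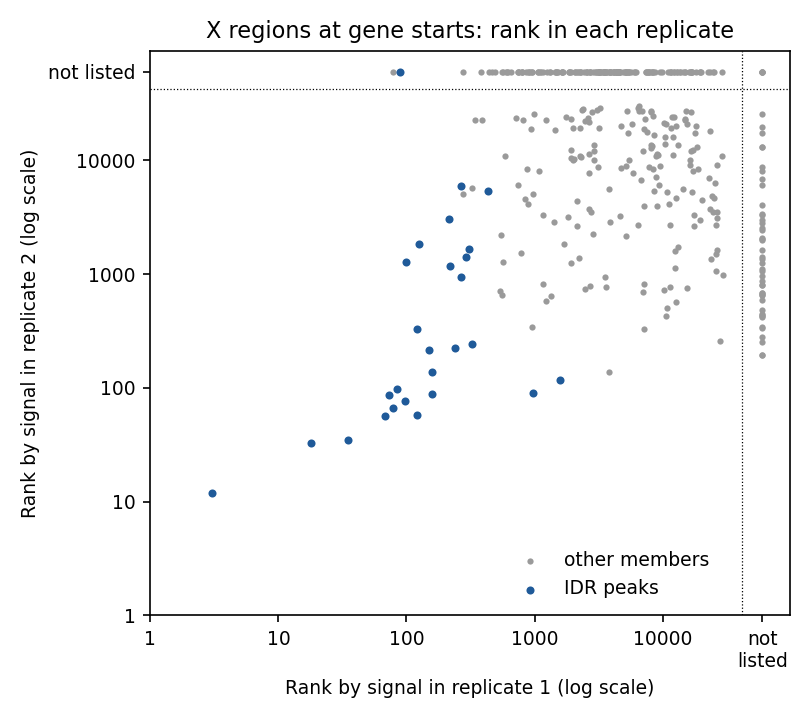
Rank by signal in replicate 1 (horizontal) and replicate 2 (vertical), both on log scales, for the closest region within 150 bp of each member; points beyond the dotted lines had none. IDR peaks (blue) lie toward the lower left, from ranks 3 and 12 at nspc-17, and the other members (grey) fill the upper right with no clear order.

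For 13 members, a region within 150 bp was among the 350 highest of 1 replicate and the member was not high in the other, 4 of them in replicate 1 and 9 in replicate 2. Those of replicate 1 were the second ftt-2 member, lev-9 (ranks 344 and 22598), another rpl-11.2 member, which matched the same replicate region as the strongest one there (rank 78), and the weaker of a pair at F52H2.5. That last member (signal 20.5) shared its replicate 1 region, of rank 275, with the stronger one (35.4), which was high in both replicates. Those of replicate 2 included B0410.3 (7161 and 328), adm-4 (28184 and 259), pdi-6 (not listed and 282), nipi-3 (not listed and 344) and a pair at nck-1 that matched the same replicate region. The second serp-1.1 member (signal 20.2) counted among the 9 through the replicate 2 region of rank 57, which is the closest one to the strongest serp-1.1 member, while its own closest region ranked 487. These genes were chosen after their ranks were seen. The count of 13 was not made for other regions, so it cannot be set beside a share over the list. By the 350 highest alone, 14 members were in replicate 1 only and 13 in replicate 2 only. The same counts were 91 and 67 of the 2363 autosomal regions at starts. For the 779 X regions away from starts they were 22 and 12. With 1 value per region in each list, no error can be given for a single member.

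X genes of translation, respiration and RNA processing were often near a member, although X holds few of them. Of 5 ribosome and translation genes on X, 4 had a start near a member (80.0%, interval 28.4 to 99.5, against 14.5% of all X genes). They were rpl-11.2 (signal 84.0), eef-1A.2 for elongation factor 1 alpha (37.3), ife-2 for a cap-binding factor (21.8) and rpl-25.1 for another large-subunit protein (21.6). For respiration and mitochondria it was 4 of 7 (57.1%), namely asb-2 (27.6) and asg-2 (21.9) of the ATP synthase and ucr-2.2 (26.8) and ucr-2.1 (23.5) of complex III. The closest start to the ucr-2.1 region was that of nmat-1. RNA processing had 4 of 8 (50%), with puf-9 (110), hrpa-2 (23.3), rnp-9 (23.3) and the muscleblind homologue mbl-1 (21.5). The same lists on autosomes stood at 54.7%, 39.1% and 30.7%, and no difference was tested.

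Chaperones and proteostasis genes had 5 of 16 near a member (31.2%, interval 11.0 to 58.7; 39.1% on autosomes). Those were hsp-3 (80.4), pdi-2 (45.4), dnj-7 (32.0) and dnj-14 (26.8), for DnaJ co-chaperones, and pdi-6 (26.4). Both hsp-3 and pdi-2 were IDR peaks. Detoxification and transport had 12 of 62 (19.4%), led by vha-15 (49.0), the dehydrogenase gene dhs-25 (33.7), gst-42 (29.5) and the ABC transporter gene mrp-5 (29.3). The list named for Wnt, Notch, Ras, TGF-beta and heterochronic signalling had 12 of 52 (23.1%, interval 12.5 to 36.8, against 15.9% on autosomes). It is wider than its name, with akt-2, pdk-1 and aak-2 among the 12 genes. Of these 12, sem-5 and lin-14 are also counted among the other transcription factors. They were led by ain-1 (50.9), mom-1, a Porcupine homologue that shared its region with lev-9 (36.8), kin-20 for a casein kinase (28.7) and akt-2 (25.7).

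Transcription factors stood near the share of all X genes. Nuclear hormone receptors, the family of the tagged protein, had 5 of 27 (18.5%, interval 6.30 to 38.1; 13% on autosomes). They were nhr-48 (41.1), nhr-255 (32.0), nhr-14 (27.7), nhr-1 (25) and nhr-25 (19.7), none of them an IDR peak. Homeobox factors had 5 of 28 (17.9%), with the neuronal identity factors ttx-3 (28.3) and lim-4 (28.1) highest, then dsc-1 (21.3) and ceh-21 (20.2). The closest start to the ceh-21 region was that of T26C11.9. Other transcription factors had 10 of 57 (17.5%), led by cebp-1 of the C/EBP family (39.4), atf-6 of the unfolded protein response (30.3) and mdl-1 (26.2). The fourth on that list, sem-5 (24.9), encodes a signalling adaptor and not a transcription factor. The fifth, tag-123 (23.6), is on it through its name alone, so the 10 include 2 genes whose place there is in doubt.

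Among 7 genes of sex determination and dosage compensation on X, sdc-2 alone had a member (14.3%, interval 0.361 to 57.9). That is close to the 14.5% of all X genes. The sdc-2 member lay 443 bp upstream of the gene's start. Its pooled signal was 38.2, with replicate signals of 24.7 and 15.6 at ranks 538 and 705. Its pooled rank was 430. SDC-2 is the protein that brings the dosage compensation complex to X. Its window holds GAGAGAG at 2 places, printed above.

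Lists of neuronal and structural genes were at or below 14.5%. Neuropeptides and insulins had 4 of 38 (10.5%), with ins-39 (176) far above nlp-14 (25.5), flp-18 (22.3) and nlp-23 (18.8). Ligand-gated channels had 4 of 31 (12.9%), led by lev-9 (36.8), which encodes an extracellular protein that clusters acetylcholine receptors and is not a channel. Next were lgc-11 (22.1), lgc-40 (22.0) and glr-6 (21.9). The glr-6 region is the one counted above for asg-2, whose start was closer. Synapse and axon guidance had 4 of 35 (11.4%), with unc-115 (24.6), syg-2 (23.2), syg-1 (22.5) and mig-15 (19.5). Neurotransmitter and neuropeptide GPCRs had 3 of 52 (5.77%), at npr-4 (24.5), sprr-1 (23.3) and npr-36 (22.9). Other ion channels and innexins had 2 of 39 (5.13%), at acd-3 (34.3) and inx-1 (21.0), and chemoreceptors had 3 of 34 (8.82%), at srv-6 (30.4), sra-39 (20) and srh-11 (20).

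Collagens and cuticle had 3 of 40 (7.50%), at col-176 (25.8), col-177 (19.2) and nas-37 (19.2). Muscle had 2 of 22 (9.09%), at the pharyngeal myosin gene myo-2 (20.9) and the actin gene act-4 (20). Vitellogenins and intestine had 4 of 31 (12.9%), at asp-3 (21.2), spp-9 (20.6), nhx-5 (20.5) and spp-21 (19.3), and no vitellogenin gene was among them. Histones and chromatin had 3 of 30 (10%), at bet-2 (71.1), set-12 (24.8) and hda-4 (20.4). Of 19 nspc and related genes only nspc-17 had a member (5.26%). None of 17 genes of lectins and innate immunity had one (upper exact limit 19.5%). Genes on any of the 22 lists were near a member in 14.5% of cases and genes on no list also in 14.5%. Most of these genes carried signals near the members' median of 21.7, where the replicates seldom met.

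**Figure D4:**
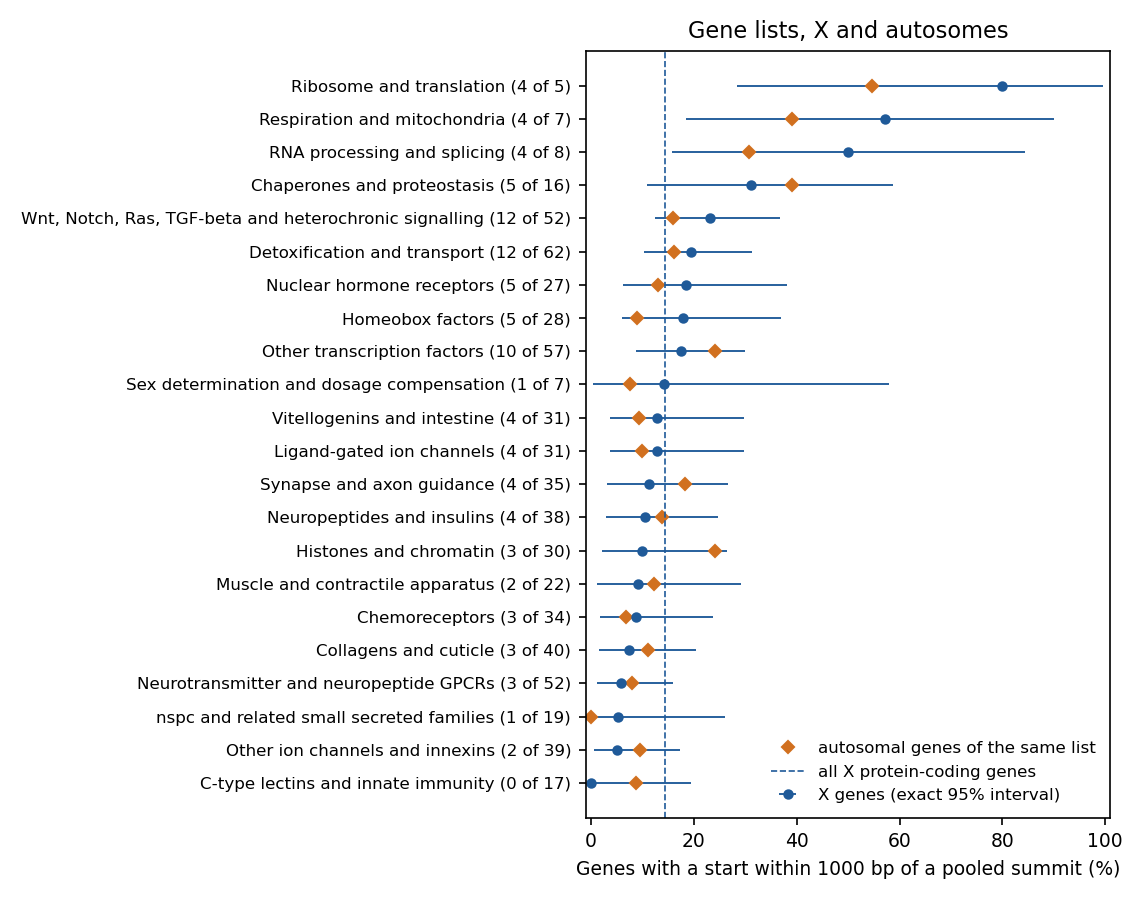
Percent of X genes on each list with a start within 1000 bp of a pooled summit (blue, bars are exact 95% binomial intervals for counting error), beside autosomal genes of the same list (orange) and the share of all X genes, 14.5% (dashed). Translation, respiration and RNA processing are highest, from 5 to 8 X genes each, and lectins and immunity stand at 0 of 17.

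Strong members were rich in G and C. Within 100 bp of the summit the median content was 47.8% for IDR members (range 28.9 to 60.2) and 34.8% for the others, which equals the 34.8% of windows placed 116 bp upstream of all 2731 X starts. A content of 45% or more was found in 17 of the 27 IDR members (63.0%) and in 65 of the other 373 (17.4%). For IDR peaks elsewhere the share was 34.0% at autosomal starts and 40.4% on X away from starts. In groups of 100 members from the highest signal, medians were 41.5%, 36.3%, 33.3% and 33.8%. The 2 strongest members, nspc-17 (42.3%) and ins-39 (40.3%), were below the median of the IDR members. The part of base composition in the signal was not tested.

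**Figure D5:**
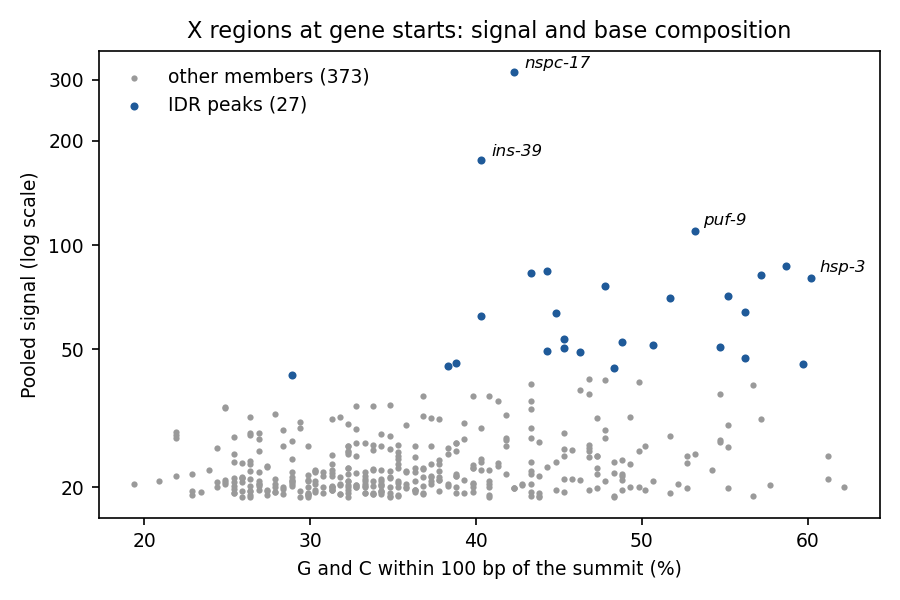
Pooled signal (log scale) of the 400 members by the percent of G and C within 100 bp of the summit, with IDR peaks in blue and the other members in grey. IDR peaks have a median of 47.8% and the others of 34.8%, while nspc-17 and ins-39 stand apart with the highest signal at 42.3% and 40.3%.

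The MEX core GCGCAGGG, searched on both strands, was within 100 bp of the summit in 4 members (1.00%), against 0.0732% of windows at all X starts. Their genes were nspc-17, ins-39, egl-17 for a fibroblast growth factor (signal 25.3) and Y15E3A.5 (21.1). Those at nspc-17 and ins-39 are IDR peaks, so 7.41% of the 27 IDR members held the core. The egl-17 member had no match in replicate 2 and lay 93 bp from a tRNA gene. The Y15E3A.5 member had no match in replicate 1. The core began 17 bp before the nspc-17 summit and 12 bp before the ins-39 summit on the plus strand. On X away from starts it was in 1.80% of windows and in 23.4% of the windows of the 47 IDR peaks there. None of the windows of the 2363 autosomal regions at starts held it, although autosomes carry 233 copies and X carries 81. Of the 17 X regions among the 25 strongest of the pooled list, 10 held the core. Written on the strand of the core and extended by 12 bases on either side, with the core in capitals, the 4 member sites and 2 strong X regions away from starts read as follows.
nspc-17, chrX:14525888-14525919, strand minus: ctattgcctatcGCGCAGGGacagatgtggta
ins-39, chrX:1345044-1345075, strand plus: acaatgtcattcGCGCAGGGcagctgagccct
egl-17, chrX:489996-490027, strand plus: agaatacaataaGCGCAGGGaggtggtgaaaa
Y15E3A.5, chrX:15340919-15340950, strand minus: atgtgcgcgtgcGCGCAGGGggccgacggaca
X region of pooled rank 1, chrX:11094214-11094245, strand minus: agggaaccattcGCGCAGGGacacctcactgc
X region of pooled rank 5, chrX:4209254-4209285, strand minus: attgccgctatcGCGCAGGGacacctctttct
The match is a description of letters and does not show that the dosage compensation complex was present.

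GAGAGAG was in 6 of the 27 IDR members (22.2%, interval 8.62 to 42.3), at zfp-3, bet-2, dpy-23, ain-1, vha-15 and F02C12.3. It was in 5.63% of the other members, 5.68% of windows at all X starts, 10.6% of X IDR peaks away from starts and 13.6% of autosomal IDR peaks at starts. The GATA-type TGATAA was in 1 IDR member, vha-15 (3.70%), and in 18.0% of the others, against 21.6% of X starts. Its share was also low in IDR peaks elsewhere, at 6.38% on X away from starts and 7.77% at autosomal starts. AGGTCA, a core bound by many nuclear receptors, was in 6.75% of all members and 5.57% of X starts, with 1 IDR member, C28G1.2. CCGCCC was in 4.50% of members and 6.55% of X starts, and in 12.1% of autosomal IDR peaks at starts. Among the 27 IDR members, pdi-2 held it. GGCGCG was in 3 IDR members (11.1%), against 2.71% of X starts and 22.8% of autosomal IDR peaks at starts. The splice acceptor TTTCAG was in 31.5% of members and 22.4% of X starts, but in 1 IDR member. It was also in 28.2% of X regions away from starts and 34.7% of autosomal regions at starts. Among IDR peaks elsewhere it was in 6.38% on X away from starts and 25.7% at autosomal starts. The windows at X starts all lie 116 bp upstream, while member summits are spread around the start, so shares of members and X starts are not matched by position.

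None of the 16 motifs searched, all on both strands, contains another. The remaining 9 gave the following shares of members and of X starts. They were 10.2% and 13.9% for AGTTCA, 8.75% and 7.84% for AGTGCA, 2.50% and 3.59% for CACGTG, 4.25% and 3.37% for CAGCTG, and 2.75% and 2.78% for TGACTCA. The homeodomain-type TAATTA gave 9.25% and 9.23%, TATAAA 24.5% and 28.6%, GTTCGAA 2.50% and 2.27%, and TTGCGCAA 0.750% and 0.476%. With 27 IDR members, a motif found in none of them has an upper exact limit of 12.8%, so single motifs could not be compared closely.

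Transfer RNA genes lay within 250 bp of 13 member summits (3.25%), compared with 5.26% of X regions away from starts and 0.677% of autosomal regions at starts. X carries 276 of the tRNA genes in these models, which is 45.1%. The strongest of the 13 were R11.4 (76.2), C28G1.2 (44.3), sor-3 (40.2), lev-9 (36.8) and nhr-255 (32.0). In 8 of the 13, part of the window recurs elsewhere in the genome, with 64.3% to 80.7% of its 31-mers unique, whereas 386 of all 400 members were unique throughout. How reads from such copies were placed is not stated in the sources used here. For these members the tRNA gene and the protein-coding start cannot be told apart as the site of the region.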

How the data were processed

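The authors deposited lists of regions with 10 columns, per the files' layout, from ChIP-seq libraries with a size range of 150 to 350 bp. Per the file descriptions, regions were called for each library and for both together against a control, and a subset was kept by IDR. The caller, aligner and thresholds are not stated in the sources used here, and read depth is unknown. The deposited signal (column 7) was used as it stands, and the deposited −log10 q-value (column 9) was not used for results. That value was 2.81 at nspc-17, the strongest member. It was 0.0593 at C49F5.13, a member with the median signal of 21.7, so members were not filtered by it. The ce10 lists were not used. Chromosome lengths were checked against WBcel235, the genome read here, with Ensembl release 115 gene models. Summits were compared with gene starts, and a replicate's region was matched when its summit lay within 150 bp. The rules were tested on simulated regions. Intervals are exact binomial at the 95% level and cover counting error over regions or genes only. No p-values were computed, since regions of 1 genome are not replicates. Named genes are those of the 30 strongest members, of all IDR members, of up to 4 per list, and of the edge of the rule, and the other genes named, among them nhr-25, pdi-6, tag-123, acly-1, egl-17 and Y15E3A.5, were added once their values had been seen. The members, lists and motifs were chosen with earlier results of these data known. Alternatives covered the distance, the kind of start, merging, the list used and the match. Python 3.11.15, NumPy 2.4.6, pandas 2.3.3, SciPy 1.17.1 and matplotlib 3.10.9 were used.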

Additional observations from a re-analysis of the deposited data

How the results depend on the processing

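The number of X regions at starts was 227 at 500 bp, 661 at 2000 bp and 27 in the IDR list, in place of 400. The share of X regions at starts was 19.3%, 56.1% and, with transcript 5′ ends as starts, 39.9%, in place of 33.9%. In the IDR list the upstream share was 81.5% in place of 56.8%, the median position −274 bp in place of −116 bp, and the share high in both replicates 96.3% in place of 15.8%. That share was 11.2% with matches within 75 bp and 5.0% within the 1000 highest regions. The numbers and shares at other distances follow from the distances themselves. For the upstream share and the median position in the IDR list, the cause was not tested. With the highest regions of 1 replicate in place of the pooled list, without replicate 1 or 2, the number was 388 to 391, the share at starts 31.7% to 33.7%, the upstream share 54.5% to 59.5% and the median −123 to −89 bp. All other values stayed within the counting interval or 1.5 times the count. The values from 1 replicate are totals over regions, and their similarity does not show that the same members were found. Of the 400 members, 221 matched a region among the 6542 highest of replicate 1, 140 among those of replicate 2 and 63 in both. These are 55.2%, 35.0% and 15.8%, against 52.6%, 34.5% and 13.9% of all pooled regions. No paired analysis was possible because the study has 1 group. Weak members near the lower end of the list, seldom found in both replicates, limit what can be said of single genes.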

Other observations

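Members were distributed along all of X. In bins of 2 Mb, the share of protein-coding genes near a member was between 9.69% and 18.6%, with the highest share from 2 to 4 Mb (55 of 296 genes) and the lowest in the last bin, from 16 Mb to the end (19 of 196). IDR members numbered 1 to 5 per bin. The share of X regions that were at starts ran from 19.3% in the last bin to 40.9% from 14 to 16 Mb. Neighbouring members had summits within 1000 bp of each other in 24 places and within 150 bp in none. These bins were described with no test.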
